A study of Mus musculus with 16 samples.

Results

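Brown adipose tissue (BAT) was compared with white adipose tissue (WAT) of control mice from a study of glucocorticoid receptor signalling in fat. The samples were chosen by their titles: 4 BAT arrays and 4 WAT arrays of control animals, which are 8 of the 16 arrays of the series. The controls are described as wild-type and every sample is labelled female. The other 8 arrays hold the same tissues of mice in which the glucocorticoid receptor was deleted in adipose tissue. They entered the estimate of spread, the filter that kept probes above background, and the choice of probe for each gene. WAT knockout samples 1 and 2 differed by about the noise of the spots (SD of the log2 difference 0.0912 against a spot noise of 0.0908) and were counted as 1 sample. The design text calls the 4 samples of a group biological replicates. Strain, age, housing temperature, any treatment, the promoter behind the deletion and the white depot taken are not given in the sources used here. Each RNA was labelled with Cy3 and hybridised to a one-colour Agilent mouse array. A level is the log2 processed signal of a probe minus the log2 of that array's 75th percentile, so a level of 0 is a signal brighter than 75% of the array's probes and 1 unit is a change of 2-fold. A difference is the mean level of the BAT controls minus that of the WAT controls. Its standard error (SE) uses a spread pooled over all 4 groups, knockouts included, and so is not the scatter of the control arrays alone. The WAT knockouts differed widely, with an SD of the log2 difference of 1.42 between samples 1 and 4. For Ppara the SD was 0.14 in the WAT and 0.12 in the BAT controls, and the SE was 0.52. The number of arrays limits the precision: n was 4 in each group throughout.

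Brown adipocytes burn fuel to make heat. Noradrenaline released by sympathetic nerves acts on beta-adrenergic receptors, cyclic AMP rises, lipid droplets release fatty acids, and the mitochondrial carrier UCP1 lets protons flow back across the inner membrane without making ATP. White adipocytes hold 1 large lipid droplet, store and release fatty acids for the rest of the body, and secrete hormones such as leptin. The depots also arise from different embryonic regions, and adult fat keeps part of this history in its Hox and other patterning genes.

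The 4 marker genes separated the depots on every array. Ucp1, the uncoupling protein, had levels of 8.21, 8.44, 8.44 and 8.45 in the BAT controls and of -3.36, -3.91, -5.23 and -5.08 in the WAT controls, where its probe was well above background on 3 of 4 arrays. BAT was high and even on all 4 arrays, and WAT was low throughout. The difference was 12.78 ± 0.64 (SE; adjusted p = 4.63e-08, limma with Benjamini-Hochberg adjustment), the largest among all genes tested. Fabp3, a fatty acid carrier of oxidative tissues, had levels of 6.83, 6.67, 6.39 and 6.33 in BAT and of -2.003, -2.20, -2.64 and -2.55 in WAT. Lep, which encodes leptin, lay the other way, between -1.61 and -1.38 in BAT and between 0.58 and 1.65 in WAT, a difference of -2.52 ± 0.44 (adjusted p = 6.11e-04). Hoxc9, a posterior Hox gene, lay between -5.55 and -4.60 in BAT and between 0.46 and 1.51 in WAT, a difference of -5.98 ± 0.52 (adjusted p = 2.53e-06), and was well above background on 2 of 4 BAT arrays. No array of one depot overlapped the other for any of the 4.

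**Figure D1:**
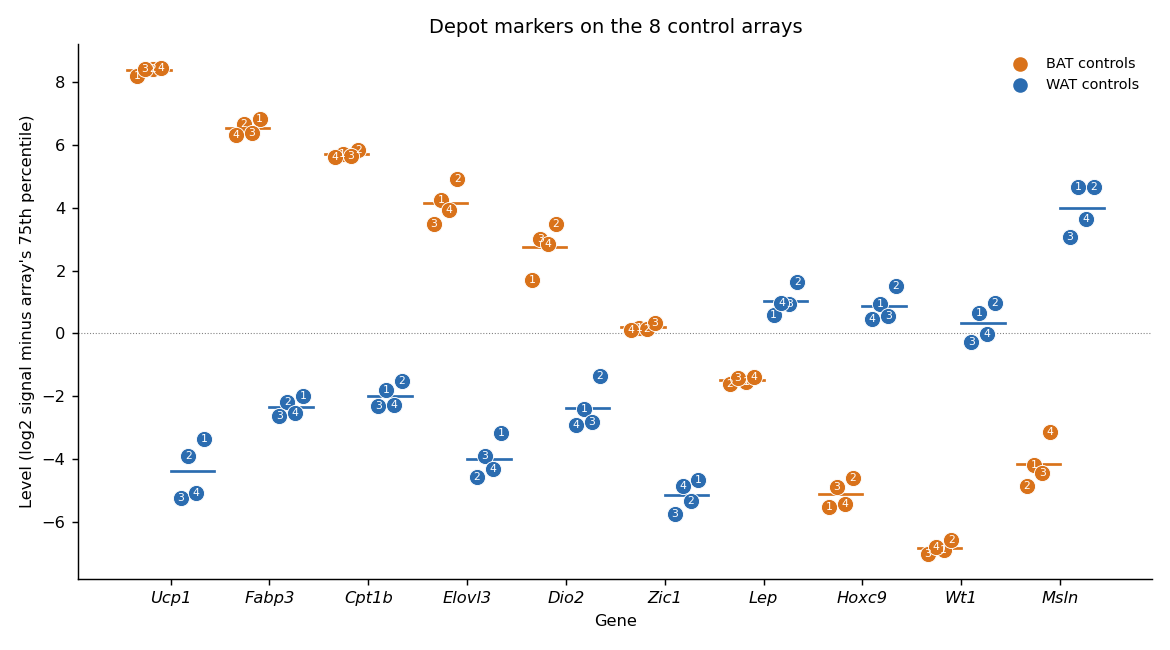
Levels of 10 genes on each of the 8 control arrays (log2 signal relative to the array's 75th percentile; orange, BAT; blue, WAT; the number in each point is the array's replicate number and the bar is the group mean). BAT and WAT arrays do not overlap for any of the 10 genes, and Ucp1 spans from -5.23 in WAT to 8.45 in BAT. Wt1 was not well above background on any BAT array.

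Some samples carried transcripts known from tissues other than fat, and marker lists for these were measured before the depots were compared. Where the transcripts came from was not tested. For a list of marker genes, the list level of an array is the median over its genes of each gene's deviation from its mean over the 8 arrays. The list of 23 intestinal epithelial genes stood at 6.24 in WAT control 1 and 4.68 in WAT control 4, at 0.03 in WAT control 3 and -2.58 in WAT control 2, and between -2.15 and -2.03 in BAT. Fabp2, the intestinal fatty acid binding protein, had levels of 7.53 and 6.50 in WAT controls 1 and 4 and of -4.73 and -1.69 in WAT controls 2 and 3. The list of 25 skeletal muscle genes stood at 2.98, 3.47 and 2.80 in BAT controls 1, 2 and 3, at -0.40 in BAT control 4, and between -2.28 and -1.46 in WAT. Myh4, a fast muscle myosin, had levels of 5.58, 6.26, 5.70 and 1.72 in BAT and none above -2.38 in WAT. Of the 25 muscle genes 20 were higher in BAT, and 1 was with BAT control 4 alone. Of the 23 intestinal genes 14 were lower in BAT. The list of 13 B cell genes stood at 3.87 and 3.22 in WAT controls 3 and 4 and at 0.33 and 0.09 in WAT controls 1 and 2. Many results, though not all, are therefore also given for the BAT controls against WAT controls 2 and 3. Some are given for BAT control 4 alone against the WAT controls.

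**Figure D2:**
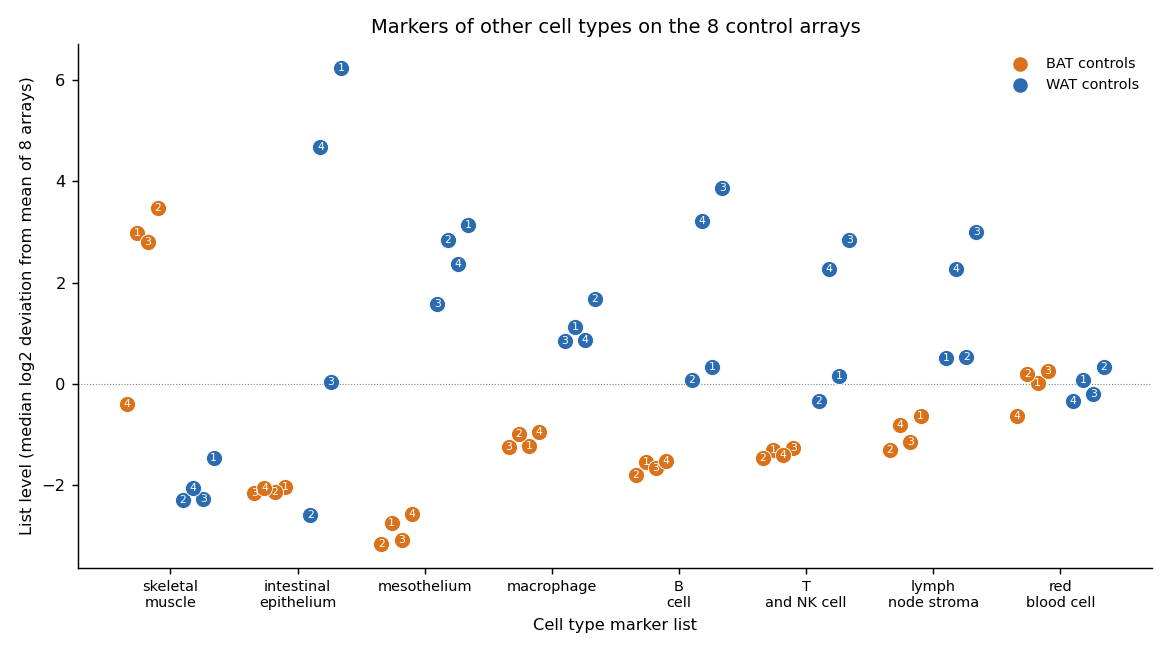
List level of 8 sets of cell type markers on each of the 8 control arrays (median deviation of the list's genes from their mean over the arrays, log2; orange, BAT; blue, WAT; numbers are replicate numbers). Intestinal genes are high in WAT controls 1 and 4 alone, muscle genes are high in BAT controls 1 to 3, and mesothelial and macrophage genes are high in all 4 WAT controls.

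Of 25107 named genes and unnamed probes tested, 4792 (19.1%) were higher in BAT and 3589 (14.3%) were lower, at an adjusted p under 0.05. The large changes ran mainly the other way: 754 were higher and 1558 (6.21%) were lower by at least 2 on the log2 scale. The median difference over everything tested was 0.11, and list medians are read against it. Counts of genes higher and lower in a list are read against the 19.1% and 14.3%. Against WAT controls 2 and 3 alone, 3147 (12.5%) were higher and 2125 (8.46%) lower. BAT control 4 alone against the 4 WAT controls gave 879 (3.50%) higher and 524 (2.09%) lower. Raw brightness also differed between the depots: the 75th percentile of processed signal lay between 725 and 1035 in WAT and between 501 and 561 in BAT. Each slide carried 1 array of each group, at the same position for each group, so depot and array position cannot be told apart.

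Of the 15 named genes with the widest gap between the nearest BAT and WAT arrays on the side of BAT, several act in fatty acid metabolism or its control. Cpt1b, which makes the acylcarnitines that enter mitochondria, rose by 7.70 ± 0.24 (adjusted p = 3.47e-10), with levels between 5.62 and 5.86 in BAT and between -2.31 and -1.53 in WAT. Elovl3, an elongase of very long chain fatty acids, rose by 8.14 ± 0.62. Acot11, an acyl-CoA thioesterase, rose by 6.73 ± 0.34, and Pank1, which starts coenzyme A synthesis, by 5.49 ± 0.23. Pdk4, the kinase that shuts pyruvate out of the pyruvate dehydrogenase complex, had levels of 6.96, 7.07, 6.81 and 7.03 in BAT and of 1.77, 1.88, 1.25 and 1.30 in WAT. Ppara, the nuclear receptor of fatty acid oxidation genes, rose by 5.06 ± 0.52, and Coq8a, needed for coenzyme Q synthesis, by 5.24 ± 0.31. The same 15 held secreted or extracellular proteins: Cpn2, the regulatory subunit of carboxypeptidase N, rose by 6.72 ± 0.39 and Kng1, a kininogen, by 5.99 ± 0.31. A second Kng1 probe gave a difference of -0.81, with levels between -5.42 and -4.73 in BAT and between -5.10 and -3.56 in WAT, so the rise of Kng1 rests on 1 of 2 probes. Aspg, an asparaginase, had levels of 6.90, 7.10, 7.16 and 7.08 in BAT and of 1.98, -0.12, 1.86 and 1.85 in WAT. Gm9961, a predicted gene, was not well above background on any WAT array and was at least 27.1-fold higher in BAT. Such a bound holds only for the main processing. With normexp background correction the Gm9961 difference was 2.59 on the log2 scale, against 6.74. All 15 kept an adjusted p under 0.05 against WAT controls 2 and 3. They were chosen by the gap between the nearest arrays, which leaving out arrays cannot narrow, so this was nearly fixed in advance. With BAT control 4 alone their differences ran from 5.09 for Ppara to 12.85 for Ucp1.

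Thermogenic and brown identity genes were higher in BAT in 27 of the 31 tested, with 1 lower and 3 that did not pass, and with a median difference of 3.64. Dio2, the deiodinase that makes active thyroid hormone inside the cell, had levels of 1.69, 3.48, 3.01 and 2.86 in BAT and of -2.42, -1.35, -2.81 and -2.94 in WAT, a difference of 5.14 ± 0.48 (adjusted p = 4.13e-06). Cidea, a lipid droplet protein of brown fat, was already well expressed in WAT, at 4.35 to 5.35, and stood at 8.89 to 9.10 in BAT. Ppargc1b and Ppargc1a, the PGC1 coactivators of mitochondrial genes, rose by 4.15 ± 0.16 and 3.64 ± 0.49. Prdm16, a brown fate factor, rose by 2.37 ± 0.26. Otop1, a proton channel, rose by 5.78 ± 0.55, and Clstn3, whose brown fat form acts at the lipid droplet, by 3.50 ± 0.55. Slc27a2, a fatty acid transporter, rose by 7.27 ± 0.69, but its WAT levels ran from -4.92 to -1.08 and were highest in WAT controls 1 and 4, where the intestinal genes were also high. The difference of Slc27a2 was 8.80 against WAT controls 2 and 3. Epsti1 was the member that was lower, by 3.70, and stood at 2.45 and 1.73 in WAT controls 3 and 4, the arrays with the most B cell signal, against -1.83 and -1.51 in WAT controls 1 and 2. Epsti1 was not called against WAT controls 2 and 3 (adjusted p = 0.0648). Sln, Bmp8b and Gk5 did not pass, with differences of 0.72, 1.08 and 0.34.

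The promoter of Dio2 carried a cAMP response element, the palindrome TGACGTCA, whose first base lay 95 bases before the transcript start. It is shown because cyclic AMP is the signal of noradrenaline in brown fat. Its 250 bases before the start (RefSeq, GRCm38.p6, minus strand, chr12:90739039-90739288) read, 5′ to 3′, with the element in capitals:
Dio2: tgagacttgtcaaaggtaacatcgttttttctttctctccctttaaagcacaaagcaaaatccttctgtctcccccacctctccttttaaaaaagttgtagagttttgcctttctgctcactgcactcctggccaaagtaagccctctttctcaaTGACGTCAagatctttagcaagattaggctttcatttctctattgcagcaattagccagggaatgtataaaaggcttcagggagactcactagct
The element was present in 3.05% of the 13235 tested genes with a promoter window of 300 bases (250 before the start and 50 after), in 4.52% of those called higher in BAT, in 2.15% of those called lower and in 2.73% of those not called. Among genes called higher by at least 2 on the log2 scale, as Dio2 was, the share was 2.51%. A match of these letters is a description of the sequence and does not show that a factor binds there.

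The nuclear genes of the respiratory chain and ATP synthase were higher in BAT almost throughout: 77 of 81 rose, 2 were lower and 2 did not pass, against the 19.1% higher among everything tested. All 36 complex I subunits tested rose, by 1.54 to 2.98, with a median of 2.29. Ndufs8, which carries iron-sulphur clusters, rose by 2.98 ± 0.23 and Ndufa3, an accessory subunit, by 2.33 ± 0.21. The 4 subunits of complex II rose by a median of 3.02, among them Sdhb, with levels of 7.17, 7.16, 7.23 and 7.19 in BAT and of 4.20, 4.19, 4.00 and 4.07 in WAT. The 10 genes listed for complex III and cytochrome c rose by a median of 2.45, with Uqcrc1, a core subunit, at 2.78 ± 0.25. Of 15 complex IV genes, 14 rose and Cox6b2 did not pass, with a median of 2.004. The BAT and WAT arrays did not overlap for 79 of the 81, the other two being Cox6b2 and Atp5g3. Against WAT controls 2 and 3, 78 of the 81 were called, and 54 with BAT control 4 alone. Among everything tested, 24.8% lay wholly higher in BAT and 18.5% wholly lower.

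ATP synthase mostly followed this group but held the 2 genes that were lower. Of its 16 genes tested, 13 rose, with a median of 1.75, and Atp5pb, a stalk subunit, rose by 1.92. The mature c subunit of the membrane ring is encoded by 3 genes, and these moved in different directions (they are named here after their values were seen). Atp5g1 had levels of 1.79, 1.99, 1.58 and 1.34 in BAT and of 3.82, 3.43, 3.16 and 3.35 in WAT, a fall of 1.77 on the log2 scale (SE 0.33; adjusted p = 9.33e-04). Atp5g2 rose by 1.16 ± 0.17 (adjusted p = 1.76e-04). Atp5g3 lay between 6.90 and 7.06 in BAT and between 6.56 and 7.26 in WAT, a difference of 0.14 ± 0.25 that did not pass, and its sign changed between scalings. Atpif1, the inhibitory factor of the enzyme, also fell, by 1.41 on the log2 scale (SE 0.23; adjusted p = 3.86e-04), with no overlap between the groups.

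Of these genes, 4 carried an NRF1 element, the palindrome spelled by the capitals that the 4 sequences share, within the 250 bases before their start, and they are shown because NRF1 is a known regulator of respiratory genes. The sequences are from RefSeq, GRCm38.p6, 5′ to 3′, with NRF1 elements, and in Ndufa11 also a cAMP response element, in capitals. Atp5k lies on the minus strand at chr5:108434400-108434649, Ndufa11 on the plus strand at chr17:56717512-56717761, Atp5g2 on the minus strand at chr15:102671048-102671297 and Cox6a1 on the minus strand at chr5:115348959-115349208.
Atp5k: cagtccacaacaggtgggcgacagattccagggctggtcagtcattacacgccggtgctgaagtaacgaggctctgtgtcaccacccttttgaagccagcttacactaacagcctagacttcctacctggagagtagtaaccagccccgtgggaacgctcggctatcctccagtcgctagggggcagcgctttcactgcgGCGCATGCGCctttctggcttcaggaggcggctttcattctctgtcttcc
Ndufa11: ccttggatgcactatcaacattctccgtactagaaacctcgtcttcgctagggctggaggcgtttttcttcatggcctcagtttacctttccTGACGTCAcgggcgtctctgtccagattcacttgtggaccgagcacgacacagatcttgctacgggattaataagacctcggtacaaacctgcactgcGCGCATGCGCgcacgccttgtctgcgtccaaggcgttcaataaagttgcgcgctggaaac
Atp5g2: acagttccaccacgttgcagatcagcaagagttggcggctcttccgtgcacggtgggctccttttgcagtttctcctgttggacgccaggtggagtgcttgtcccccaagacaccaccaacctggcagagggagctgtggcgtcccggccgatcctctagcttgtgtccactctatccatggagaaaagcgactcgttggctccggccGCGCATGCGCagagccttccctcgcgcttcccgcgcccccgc
Cox6a1: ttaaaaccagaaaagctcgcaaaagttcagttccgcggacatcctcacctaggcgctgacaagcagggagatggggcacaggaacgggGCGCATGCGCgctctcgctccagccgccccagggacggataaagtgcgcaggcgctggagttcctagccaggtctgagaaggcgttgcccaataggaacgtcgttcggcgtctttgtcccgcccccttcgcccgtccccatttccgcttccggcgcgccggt
Atp5k and Ndufa11 rose by 2.34 ± 0.32 and 2.22 ± 0.28, and Atp5g2 and Cox6a1 by 1.16 ± 0.17 and 1.14 ± 0.26. Over the window of 300 bases the element was found in 5 of the 68 respiratory genes with a window (7.35%), the 5th being Uqcrc1, against 1.78% of all tested genes with a window. It was found in 2.85% of the genes called higher in BAT, 0.937% of those called lower and 1.59% of those not called. Nrf1 itself had levels between -2.30 and -1.88 in BAT and between -1.91 and -1.36 in WAT, a difference of -0.42 ± 0.21 that did not pass (adjusted p = 0.151).

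Genes of mitochondrial biogenesis and dynamics were mostly higher in BAT: 18 of 21 rose, none fell, and Nrf1, Fis1 and Esrrg did not pass. Esrra, the estrogen-related receptor that works with PGC1 coactivators, rose by 2.22 ± 0.19, Letmd1, a mitochondrial protein of brown fat, by 3.91 ± 0.20 and Opa1, which fuses inner membranes, by 2.80 ± 0.25. Esrrg was read by 2 probes that disagreed. The probe used, the one with the higher mean, lay between -2.65 and -2.34 in BAT and between -2.86 and -2.33 in WAT. The other lay between 0.16 and 0.34 in BAT and between -7.62 and -4.97 in WAT, so no single value is given for this gene. All 34 mitochondrial ribosomal genes tested rose, by a median of 1.53, among them Mrps2, a small subunit protein, at 2.11 ± 0.15. Of 32 cytosolic ribosomal genes none rose and 5 fell, such as Rps6 by 0.82 on the log2 scale, with a median of -0.31. That share, 15.6%, is near the 14.3% lower among everything tested, and Rps6 was not called against WAT controls 2 and 3 (adjusted p = 0.104). The result depended on the spread and scaling used. In the 8 control arrays alone 13 of the 32 were lower, against 18.5% of everything tested, and against WAT controls 2 and 3 none was. Under quantile normalization the list median was -0.96.

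**Figure D3:**
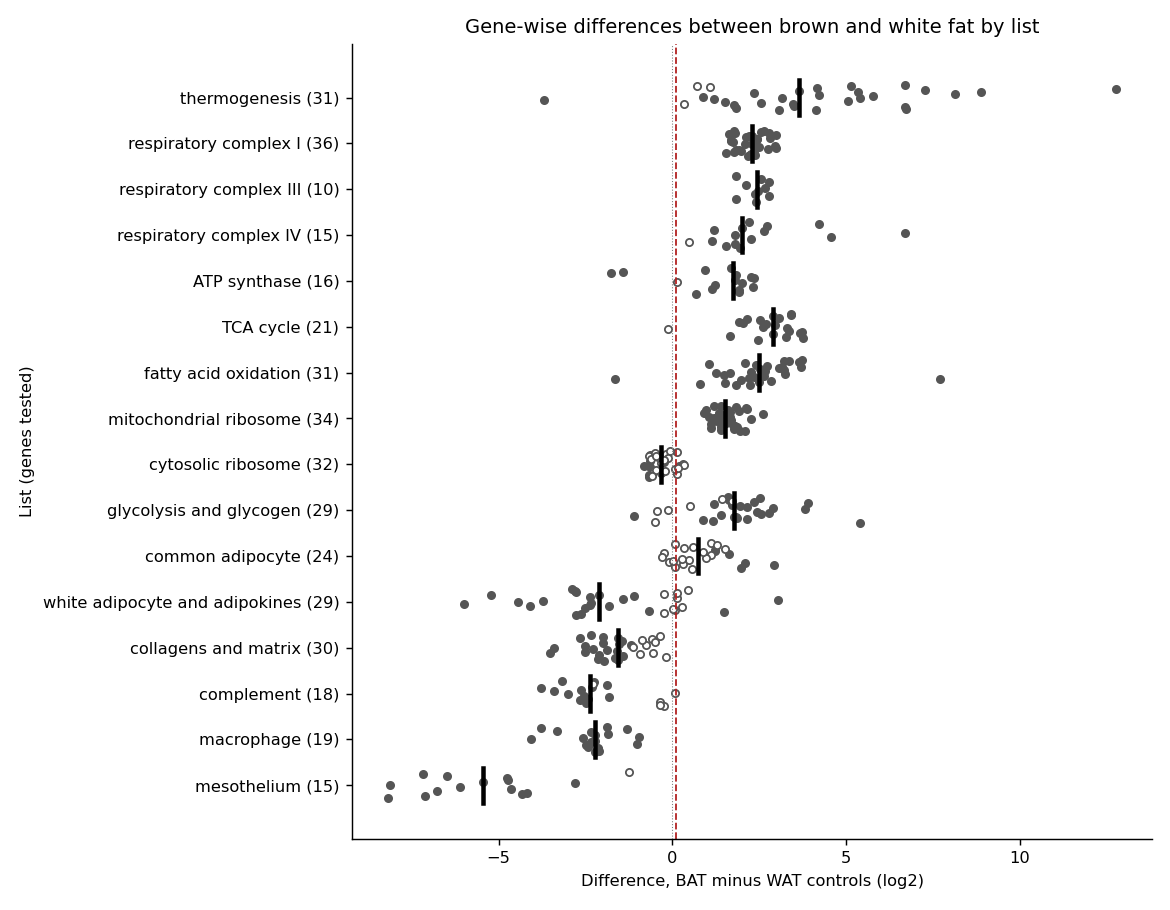
Difference between BAT and WAT controls for each tested gene of 16 lists (log2; filled, adjusted p under 0.05; open, not passed; black bar, list median; dashed line, the median of everything tested, 0.11). Respiratory, TCA cycle and mitochondrial ribosome genes lie almost wholly to the right of 0, and complement, collagen, macrophage and mesothelial genes to the left.

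The enzymes that feed the chain were higher as well. In the tricarboxylic acid (TCA) cycle, including the pyruvate dehydrogenase complex, 20 of 21 genes rose, with a median of 2.90. Suclg1 and Sucla2, which make up succinyl-CoA ligase, rose by 3.43 ± 0.25 and 3.77 ± 0.33, and Dlst, of the oxoglutarate dehydrogenase complex, by 2.90 ± 0.22. Pcx, pyruvate carboxylase, did not pass, with levels of 6.62 to 6.80 in BAT and 6.57 to 7.12 in WAT. In fatty acid oxidation 30 of 31 rose and 1 fell, with a median of 2.51. Against WAT controls 2 and 3, 25 of the 31 rose and 1 fell. Acadl, the long chain acyl-CoA dehydrogenase, had levels between 6.28 and 6.43 in BAT and between 2.14 and 3.11 in WAT, and Slc25a20, the acylcarnitine carrier, rose by 3.70 ± 0.35. The gene that fell was Cpt1a, described below with its isoform. Of 21 genes of branched-chain amino acid catabolism 16 rose and none fell, among them Dbt, of the branched-chain ketoacid dehydrogenase, at 1.88 ± 0.23. Against WAT controls 2 and 3, 12 of the 21 rose. Bcat2, which starts the pathway, did not pass, with a difference of -0.22 ± 0.38. Of 5 ketone body genes 3 rose and 2 fell: Acat1 and Oxct1 rose by 2.48 and 0.99, while Bdh1 fell by 4.93 on the log2 scale. Bdh1 was highest in WAT control 1, at 3.06, and its difference against WAT controls 2 and 3 was -3.84 (adjusted p = 0.00997).

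Genes of related function, most of them alternative forms of one protein, were compared in pairs. Subtracting 1 gene's level from the other's on the same array cancels any single scaling factor of that array, and this within-array difference was compared by an exact two-sided permutation test of 4 against 4, for which p = 0.0286 is the smallest possible. Of 16 pairs, 13 reached it, and p is not adjusted over the pairs. The pairs were chosen with earlier results known and include genes with some of the widest gaps, so these values are a description. With normexp background correction 11 pairs did not overlap. The size of the shift varied widely: Slc25a4 and Slc25a5, the ADP/ATP carriers, both rose, by 1.63 and 1.23. Cpt1b rose by 7.70 while Cpt1a, the liver form, fell by 1.64 on the log2 scale (SE 0.18; adjusted p = 1.34e-05), from levels of 1.53, 1.87, 1.29 and 1.67 in WAT to 0.03, 0.18, -0.27 and -0.13 in BAT. Ucp2, a relative of Ucp1, fell by 1.66 on the log2 scale. Fabp4, the main fatty acid binding protein of adipocytes, differed by 0.58 ± 0.23 and did not pass, against 8.90 for Fabp3, and its sign changed between scalings. Cidec, the droplet protein of white fat, differed by 0.02 ± 0.45, against 4.17 for Cidea. Ldhb, the lactate dehydrogenase subunit of oxidative tissues, rose by 3.91 ± 0.35 and Ldha by 0.89 ± 0.28.

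Among cytochrome c oxidase pairs, the form known from heart and muscle rose more than its partner. Cox7a1 had levels of 8.66, 8.55, 8.67 and 8.67 in BAT and of 3.69, 0.89, 0.83 and 2.35 in WAT, a rise of 6.70 ± 0.61, while Cox7a2 rose by 1.95 ± 0.29. Cox8b rose by 4.24 ± 0.57 and Cox8a by 1.55 ± 0.28. BAT control 4, which held the least muscle signal, was as high as the others for both: the differences with it alone were 6.72 for Cox7a1 and 4.28 for Cox8b. Cox6a2 behaved differently, with levels of 2.39, 2.66 and 1.86 in BAT controls 1 to 3 and of -2.09 in BAT control 4, the pattern of the muscle list. Its difference fell from 4.58 to 1.29 (adjusted p = 0.605) with BAT control 4 alone, and the test of Cox6a2 against Cox6a1 gave p = 0.0571 (exact permutation). The muscle list moved with Cox6a2 in the same arrays, and its part in the value was not tested. PGC1 alpha against beta and Acot2 against Acot1 overlapped between depots, with exact permutation p of 0.257 and 0.229, and the other pairs, such as Elovl3 against Elovl6 and Acacb against Acaca, did not overlap.

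**Figure D4:**
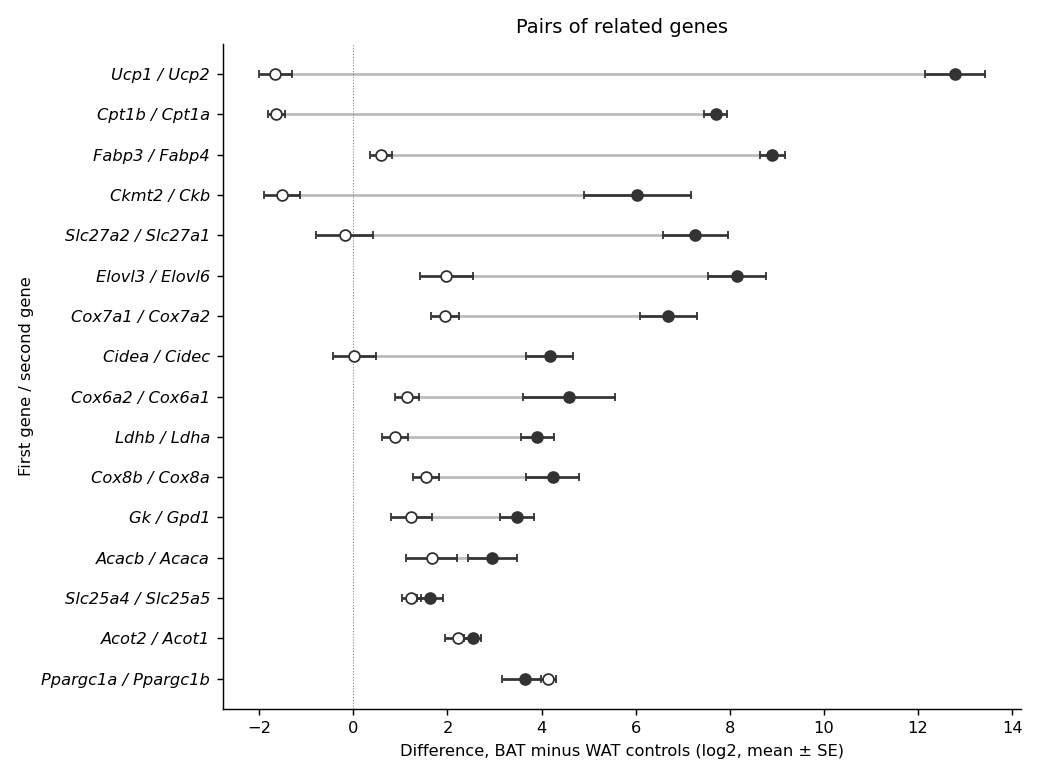
Difference between BAT and WAT controls for both members of 16 gene pairs (log2, mean ± SE; filled circle, first gene; open circle, second gene). The first gene lies further to the right in 15 of the 16 pairs, and Cpt1a, Ucp2, Ckb and Slc27a1 lie to the left of 0.

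Of 8 creatine genes 3 rose and 3 fell, against 19.1% and 14.3% of everything tested, and those that rose most followed the muscle signal. Ckmt2, the mitochondrial creatine kinase of muscle, rose by 6.04 ± 1.14, with levels of 1.78, 2.23 and 1.31 in BAT controls 1 to 3 and -2.82 in BAT control 4, and Ckm, the muscle form, followed the same arrays. With BAT control 4 alone neither passed (adjusted p = 0.374 and 0.690). Alpl, a phosphatase, rose by 2.07 ± 0.31 and was as high in BAT control 4, at 1.75, as in the others. Ckb, the brain form that is also found in brown fat, fell by 1.52 on the log2 scale, from 2.47 to 4.22 in WAT to 1.67 to 1.92 in BAT. Its fall was 1.10 and did not pass against WAT controls 2 and 3 (adjusted p = 0.0916).

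Genes of glucose use were also higher in BAT: 22 of 29 genes of glycolysis and glycogen rose and 1, Pdk3, fell, with a median of 1.77. Pgk1, phosphoglycerate kinase, had levels of 7.05, 6.99, 7.01 and 7.02 in BAT and of 3.99, 4.23, 4.29 and 4.44 in WAT. Gpi1 and Pkm, which act early and late in glycolysis, rose by 2.16 ± 0.19 and 2.36 ± 0.24. Slc2a4, the insulin-responsive glucose transporter GLUT4, rose by 1.64 ± 0.56 and was not called against WAT controls 2 and 3 (adjusted p = 0.0833), while Slc2a1, the basal transporter, differed by -0.45 ± 0.25 and did not pass. Of the glycolysis genes 14 were higher against WAT controls 2 and 3, and 8 with BAT control 4 alone. In fatty acid and triglyceride synthesis 14 of 27 rose and 2 fell, against 19.1% and 14.3% of everything tested. In that list 6 were higher against WAT controls 2 and 3, and 3 with BAT control 4 alone. Gk, glycerol kinase, rose by 3.48 ± 0.36, Acss1, which activates acetate in mitochondria, by 3.26 ± 0.40 and Acacb, which makes the malonyl-CoA that restrains fatty acid entry into mitochondria, by 2.95 ± 0.52. Fads1 and Fads2, the desaturases of polyunsaturated fatty acids, were the 2 that fell, by 1.85 and 1.56 on the log2 scale.

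Most genes that all adipocytes share did not pass. Of 24 genes, 6 (25.0%) rose, against 19.1% of everything tested, none fell and 18 did not pass, with a median of 0.74. Against WAT controls 2 and 3, 1 of them was called. The result depended on the spread and scaling used. In the 8 control arrays alone 14 of the 24 were higher, against 24.4% of everything tested, and none was lower. Of the 24 differences 21 were positive, and the list median was 0.02 under quantile normalization. A gene that did not pass is therefore not shown to be unchanged. Pparg, the main adipogenic receptor, rose by 1.97 ± 0.49 (adjusted p = 0.00669), from 3.55 to 3.81 in WAT to 5.57 to 5.90 in BAT. Adipoq, which encodes adiponectin, lay between 7.11 and 7.41 in BAT and between 7.30 and 7.81 in WAT and did not pass (adjusted p = 0.708), and Plin1, the perilipin of the droplet surface, differed by 0.89 ± 0.58 and did not pass. Among adipogenic transcription factors 12 of 36 (33.3%) rose and 3 (8.33%) fell, against 19.1% and 14.3% of everything tested. Cebpb rose by 2.94 ± 0.25, between 3.13 and 3.49 in BAT and between 0.18 and 0.39 in WAT, whereas its relative Cebpd fell by 1.94 on the log2 scale (SE 0.21). Of 26 genes of lipolysis and lipid uptake 8 (30.8%) rose and none fell. Among those that rose were Plin5, a perilipin of oxidative tissue, at 3.66 ± 0.64 and Lipa, the lysosomal lipase, at 1.85 ± 0.19. Of 23 cholesterol synthesis genes 7 (30.4%) rose and none fell.

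Receptors and enzymes for noradrenaline and thyroid hormone moved in both directions. Of 24, 11 (45.8%) were higher and 5 (20.8%) lower, against 19.1% and 14.3% of everything tested. Adra1a rose by 3.66 ± 0.37, from -4.23 to -2.94 in WAT to -0.35 to -0.05 in BAT, while Adra1b, of the same receptor class, fell by 3.05 on the log2 scale (SE 0.30; adjusted p = 6.95e-06). The adenylyl cyclases split too: Adcy3 rose by 3.30 ± 0.35 and Adcy5 fell by 2.92 on the log2 scale (SE 0.59). Adra2a, an inhibitory receptor, fell by 2.98 on the log2 scale (SE 0.40). Slc6a2, the noradrenaline transporter, was not well above background on any BAT array and lay between -4.22 and -3.89 in WAT, at least 1.93-fold lower in BAT. Th, the enzyme that starts noradrenaline synthesis, did not pass, with a difference of -0.05. Dio1, the other deiodinase gene that passed, had levels of -0.35 and -1.69 in WAT controls 1 and 4 and of -5.54 and -4.91 in WAT controls 2 and 3. It was not called against WAT controls 2 and 3 (adjusted p = 0.53), and its difference moved with the intestinal list.

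Hox genes changed in both directions. Of 33 tested, 4 were higher in BAT and 11 lower, against 19.1% and 14.3% of everything tested. Against WAT controls 2 and 3, 3 were higher and 8 lower, and with BAT control 4 alone 2 and 2. The 4 that rose had low paralogue numbers, which are expressed towards the head (low against high numbers were not tested): Hoxa4 by 3.05 ± 0.33, Hoxa5 by 2.78 ± 0.39, Hoxa2 by 1.501 ± 0.38 and Hoxc5 by 1.37 ± 0.38. Among paralogue numbers 1 to 5, 4 of 13 rose and 2, Hoxb5 and Hoxd4, fell, with a median difference of 0.53. Among numbers 6 to 13, none of 20 rose and 9 fell, with a median of -1.16. The median of all 33 was -0.17, and 0.05 against WAT controls 2 and 3. The Hox list stood at 0.82 in WAT control 1 and between -0.19 and 0.09 in the other WAT controls. Hoxc9 had the largest fall, and Hoxd9, Hoxb7 and Hoxc8 fell by 2.25, 2.26 and 2.36 on the log2 scale. Within the Hoxb cluster the 5 adjacent genes Hoxb5, Hoxb6, Hoxb7, Hoxb8 and Hoxb9 all fell, by 1.75, 2.43, 2.26, 1.53 and 2.24 on the log2 scale. The pattern was not uniform: Hoxa9, Hoxc10 and Hoxd8 did not pass, with differences of 0.12, 0.04 and -0.24.

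**Figure D5:**
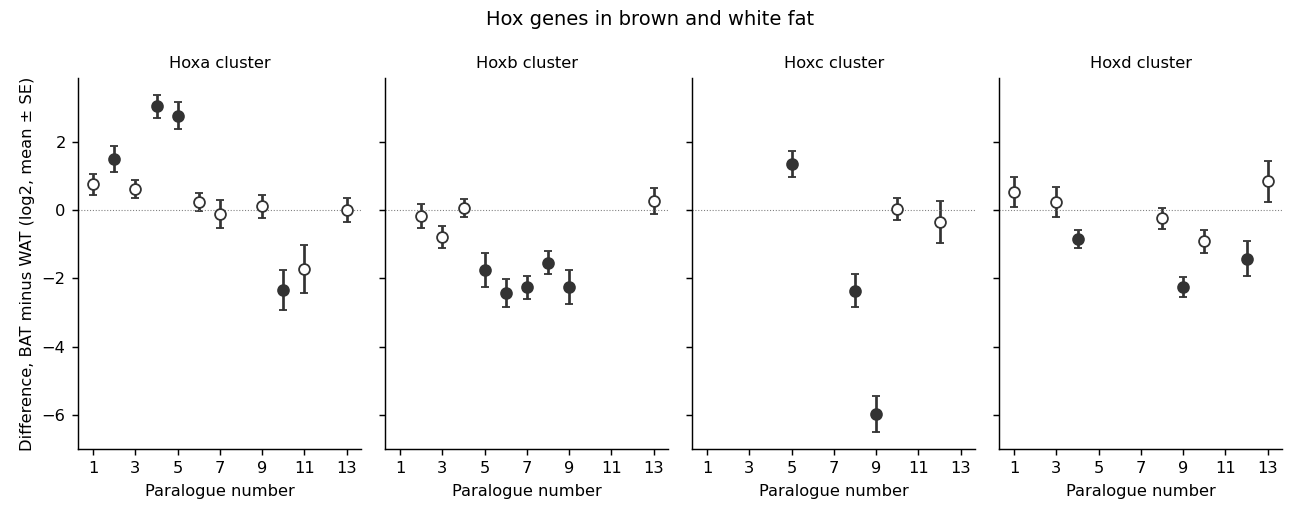
Difference between BAT and WAT controls of 33 Hox genes against paralogue number, in 4 panels for clusters a to d (log2, mean ± SE; filled, adjusted p under 0.05; open, not passed). The 4 filled points above 0 have paralogue numbers of 2 to 5, and Hoxc9 is the lowest point at -5.98.

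Of 37 other patterning factors, 8 (21.6%) rose and 11 (29.7%) fell, against 19.1% and 14.3% of everything tested. Zic1, a marker of classical brown fat, lay between 0.11 and 0.34 in BAT and between -5.77 and -4.67 in WAT, where 1 of 4 arrays was well above background. Tbx5, a factor of forelimb and heart, rose by 4.72 ± 0.51. Tbx15 rose by 2.06 ± 0.45, with WAT control 1 at -2.90 and the other WAT arrays at -4.94 to -4.52. Wt1, a factor of mesothelium and visceral fat precursors, lay between -0.28 and 0.96 in WAT and was not well above background on any BAT array. In the main processing it was at least 38.8-fold lower in BAT, and its normexp difference was -3.43 on the log2 scale, against -7.17. Mesothelial genes were high in the same 4 WAT arrays, and their part in the Wt1 difference was not tested. Osr1, Tbx1 and Gata6 fell by 4.02, 3.87 and 3.21 on the log2 scale, and Tcf21 by 2.76. Isl1 was not above the detection limit in BAT and was at least 9.33-fold lower.

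White fat and adipokine genes were lower in BAT in 19 of 29, higher in 2 and did not pass in 8, with a median of -2.10. Among everything tested 14.3% were lower and 19.1% higher. Against WAT controls 2 and 3, 15 of the 29 were lower and 1 was higher. Psat1, a serine synthesis enzyme, fell by 3.72 on the log2 scale (SE 0.37), Ccl2, the monocyte chemokine, by 2.80 (SE 0.24) and Mest, an imprinted gene linked to adipocyte size, by 2.78 (SE 0.37). Nampt, the enzyme of NAD salvage that is also secreted, went the other way, from 1.17 to 2.06 in WAT to 4.54 to 5.02 in BAT. Among proteins described as secreted by brown fat 7 of 22 (31.8%) rose and 8 (36.4%) fell, so the list did not move one way. Slit2, whose cleaved form comes from brown fat, fell by 4.64 on the log2 scale (SE 0.48), and Adm and Nucb2, which encode adrenomedullin and nesfatin, by 2.10 and 1.84. Nrg4 and Vegfa, chosen after their values were seen, rose by 2.54 ± 0.64 and 2.22 ± 0.44, and Fgf21 did not pass, with a difference of 0.20.

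Mesothelial, immune and matrix genes were mostly lower in BAT. In bulk tissue, fewer cells of a type and less RNA per cell cannot be told apart. All 14 mesothelial genes that passed were lower, of 15 tested, with a median of -5.46, and the list stood between 1.57 and 3.13 in WAT and between -3.16 and -2.56 in BAT. All 15 were well above background on all 4 WAT arrays, and 4 were so on no BAT array. Msln, mesothelin, lay between 3.08 and 4.66 in WAT and between -4.85 and -3.15 in BAT. Krt18, Krt8 and Krt19, keratins that intestine and mesothelium share, fell by 6.12, 8.12 and 6.47 on the log2 scale and by 5.12, 5.99 and 5.30 against WAT controls 2 and 3. Several of the 15 genes with the widest gap on the side of WAT were of this kind or secreted: Slpi, a protease inhibitor, had levels of 5.59, 6.43, 5.21 and 5.38 in WAT and of -2.71, -4.08, -4.17 and -1.13 in BAT. Grem1, an antagonist of bone morphogenetic proteins, was not above the detection limit in BAT and was at least 29.1-fold lower. Gpm6a, Ackr4 and Serpinb2 did not reach the detection limit in any BAT sample and were at least 46.8-fold, 20.4-fold and 12.9-fold lower in the main processing. Their normexp differences were smaller, at -3.525, -2.71 and -2.13 on the log2 scale. Slc39a4, a zinc importer of the gut, and Lgals2, a galectin, were highest in WAT controls 1 and 4. Against WAT controls 2 and 3 both passed, with differences of -5.73 and -5.76. They too were chosen by the gap, which leaving out arrays cannot narrow.

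All 19 macrophage genes were lower in BAT, with a median of -2.23, and 15 of them were also called against WAT controls 2 and 3. The median with BAT control 4 alone was -2.03. Lyve1, shared by tissue macrophages and lymphatic vessels, fell by 4.06 on the log2 scale (SE 0.40) and Itgam by 2.57 (SE 0.27). Cd5l, a secreted macrophage protein, lay between 1.82 and 2.59 in WAT and between -3.77 and -2.85 in BAT. B cell and T and NK cell genes were lower in 8 of 13 and 9 of 17, but only 2 of each were called against WAT controls 2 and 3, and both lists were highest in WAT controls 3 and 4. Ms4a1, a B cell surface protein, had levels of 0.33, 0.65, 4.36 and 3.68 in WAT and between -3.73 and -3.02 in BAT. Ccl21a and Ccl19, chemokines of lymph node stroma, stood at 5.13 and 5.51 in WAT control 3. Among 22 MHC and interferon genes 14 fell and none rose, with a median of -0.90, such as H2-Aa by 2.93 on the log2 scale. Of these, 8 were called against WAT controls 2 and 3 and 1 with BAT control 4 alone. The list stood at 0.77 and 0.64 in WAT controls 3 and 4 and at 0.31 and 0.18 in WAT controls 1 and 2, the order of the B cell list, whose part was not tested.

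Complement was lower in BAT in 13 of 18 genes, with none higher and a median of -2.36, and all 13 were also called against WAT controls 2 and 3. Cfb, factor B, lay between 4.56 and 5.004 in WAT and between 0.95 and 2.15 in BAT, a fall of 3.41 on the log2 scale (SE 0.30), and C1ra and Serping1 fell by 2.66 and 2.30. Cfd, which encodes adipsin, and C3 did not pass, with levels from 7.80 to 8.49 and from 7.63 to 8.10 in WAT and differences of 0.09 and -0.36. Of 30 collagen and matrix genes 21 fell and none rose, with a median of -1.57. Against WAT controls 2 and 3, 14 of the 30 fell, and the median with BAT control 4 alone was -1.28. Fn1, fibronectin, and Col14a1, a fibril-associated collagen, fell by 3.51 and 3.41 on the log2 scale, and Timp1 and Timp2, inhibitors of matrix proteases, by 2.33 and 2.66. The mesothelial and macrophage lists were high in the same 4 WAT arrays, and their part in the complement and matrix differences was not tested. Col4a1, of the basement membrane, lay between 3.33 and 3.46 in BAT and between 3.34 and 4.16 in WAT and did not pass.

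Of 20 retinoid genes tested 3 rose, 4 fell and 13 did not pass, near the 19.1% higher and 14.3% lower of everything tested. The 3 retinaldehyde dehydrogenases fell: Aldh1a2 from 1.40 to 1.68 in WAT to -3.77 to -2.96 in BAT, Aldh1a1 by 3.34 on the log2 scale (SE 0.61) and Aldh1a3 by 3.19 (SE 0.38). Rarb, a retinoic acid receptor, rose by 2.55 ± 0.24 and Rdh10, which makes retinaldehyde, by 1.15 ± 0.15. Antioxidant genes that rose included those of mitochondria: Prdx3, Txnrd2, Txn2 and Sod2 rose by 2.23, 2.20, 1.503 and 2.27, and Gsta3, a cytosolic glutathione transferase chosen after its values were seen, fell by 4.12 on the log2 scale. In this list 11 of 29 rose and 4 fell.

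Vessel and nerve genes did not move as groups. Of 19 endothelial genes 2 rose, 3 fell and 14 did not pass, against 19.1% higher and 14.3% lower among everything tested. Kdr, the main VEGF receptor, rose by 1.38 ± 0.27, while Plvap, of fenestrated vessels, and Vwf, a clotting factor carrier, fell by 2.89 and 2.67 on the log2 scale. Of 13 smooth muscle and pericyte genes 5 fell and 1 rose: the contractile genes Tagln, Myh11 and Acta2 fell by 2.71, 2.87 and 2.89 on the log2 scale, and Rgs5, of pericytes, rose by 1.78 ± 0.32. Of 15 nerve and Schwann cell genes 2 rose and 3 fell. S100b, known from Schwann cells and secreted by brown adipocytes, lay between 4.55 and 5.26 in BAT and between 0.13 and 1.09 in WAT, a rise of 4.32 ± 0.46 (adjusted p = 1.12e-05). The list of 6 red blood cell genes had overlapping list levels, between -0.63 and 0.26 in BAT and between -0.35 and 0.33 in WAT.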

How the data were processed

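Total RNA of 16 adipose samples was hybridised to one-colour Agilent arrays. The deposited scanner files hold background-subtracted processed signal intensity and flags, made by the authors with Agilent Feature Extraction 12.0.0.7, per the file headers. The deposited value table held the same arrays' spot mean intensity within 1e-04. Here, control spots were dropped and log2 processed signal was set against each array's 75th percentile. Probes well above background on at least 3 of 4 arrays of any group, knockouts included, were kept. Of 41174 probes, 28223 were named through RefSeq (GRCm38.p6), and each gene used its probe with the highest mean over all groups. limma 3.58.1 was fitted to 15 samples in 4 groups, after averaging WAT knockout 1 and 2, and was tested on simulated data. Adjusted p covers all 25107 genes and probes, with a threshold of 0.05. A fold of "at least" sets the bright group's mean against the detection floor of the dim one. The floor of an array is the lowest level of any probe well above background on it. Such folds hold for the main processing and can be smaller with normexp background. The members and lists were chosen with earlier results of these data known. Genes named were the 4 markers, the 15 with the widest gap each way, pair members, up to 5 per list by smallest adjusted p, members that did not pass, and Hox and patterning genes that passed. Fabp2, Otop1, Clstn3, Epsti1, the Atp5g genes, Atpif1, Ndufa11, Atp5k, Pdk3, Fads2, Adcy5, Adra2a, Dio1, Nrg4, Vegfa, Aldh1a1 and Gsta3 were named after their values were seen. Alternatives covered scaling, background correction, filters, probe choice, the value table, blocks and samples left out. The samples' separate origin rests on the design text. Results that needed withheld items are not reported here.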

Additional observations from a re-analysis of the deposited data

Results flagged for a closer look

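For each named gene and described list, the 4 arrays of a group were searched for 1 that stood far from the other 3, by Dixon's limit on the gap to the nearest array as a share of the group's range. Of 392 such groups 32 met this, and chance gives about 1 in 20. In tight groups the distances were small.

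WAT control 2 stood apart most often. It was the highest WAT array for Clstn3 (4.38, the others 2.92 to 3.07), Sucla2 (4.47), Acat1 (3.58), Oxct1 (5.39, the others 4.44 to 4.57), Itgam (0.0922, the others -1.01 to -0.85), Fn1 (3.11, the others 1.93 to 2.13), Col4a1 (4.16), Txnrd2 (0.58) and Kdr (2.59). It was the lowest for Aspg (-0.12, the others 1.85 to 1.98), Ppargc1b (0.41) and Adra2a (-1.27, the others -0.41 to -0.34). WAT control 1 was highest for Uqcrc1 (5.33), Ckmt2 (-3.24, the others -6.23 to -5.99) and Adra1a (-2.94, the others -4.23 to -4.04), and lowest for Nampt (1.17, the others 1.94 to 2.06) and Vegfa (2.06). It was also the highest WAT array on several unrelated lists, such as Hox (0.82), granulocyte (0.89) and pancreatic acinar genes (0.85). Its detection floor was -4.60, the others -5.76 to -5.43. Whether its high values for the dim genes Ckmt2 and Adra1a are particular to those genes was not tested.

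BAT control 4 was the lowest BAT array for 3 muscle genes: Myh4 (1.72, the others 5.58 to 6.26), Cox6a2 (-2.09, the others 1.86 to 2.66) and Ckm (-2.57, the others 1.22 to 1.83). It was also lowest for Mrps2 (2.66) and highest for the vessel genes Plvap (0.72, the others 0.18 to 0.25) and Vwf (2.40, the others 1.72 to 1.83). BAT control 1 was lowest for Ucp1 (8.21), Acss1 (5.54) and Adcy3 (1.17, the others 1.70 to 1.77) and highest for Hoxb5 (-1.57). BAT control 2 was lowest for Cox7a1 (8.55) and Hoxa5 (0.15, the others 0.57 to 0.60) and highest for Acot2 (0.67) and Pkm (5.96). BAT control 3 was highest for Pparg (5.90).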

How the results depend on the processing

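The counts of 4792 genes and probes higher and 3589 lower in BAT stayed within 1.5 times under other scalings, backgrounds, filters, probe rules and blocks. The members changed more. With normexp background 68.1% of the higher and 67.0% of the lower calls were kept, and 98.9% and 100% kept their direction. Of 2510 called genes with 2 or more kept probes, 207 (8.25%) had probes of opposite sign. The counts also depended on the samples used. They fell to 3147 and 2125 without WAT controls 1 and 4, and to 879 and 524 with BAT control 4 alone, both settings that test fewer samples. Without all of those 5 arrays together, a setting added after the data were seen, they were 181 and 102. Leaving out 1 array at a time gave 3771 to 4902 higher, 2850 to 3595 lower and 13 to 14 of 16 pairs that did not overlap. The pairs numbered 14 under quantile normalization and 11 with normexp background. Under median scaling 5472 were higher and 3066 lower, with a median difference of 0.26, and with normexp background 3370 and 2549, with a median of -0.15.

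Arrays with the same replicate number deviated from their group means with correlations of 0.177, 0.0985, 0.0543 and 0.0515. Not all passed 0.1, so the numbers were not taken as pairs, although every WAT array correlated best with the BAT array of its own number. With the number as a replicate block, fitted on the 8 control arrays, 5822 were higher and 4558 lower, against 6132 and 4642 in those 8 arrays without the block.

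Of 165 named genes that were called, 148 kept the call without WAT controls 1 and 4, and 100 with BAT control 4 alone. The 17 lost in the first setting were Fabp2, Epsti1, Rps6, Oxct1, Ldha, Elovl6, Acaca, Ckb, Pdk3, Slc2a4, Fads2, Pparg, Dio1, Hoxc5, Hoxb5, Hoxd4 and Nrg4. Leaving out 1 array ended the calls of Acaca (adjusted p up to 0.0616), Dio1 (0.126), Epsti1 (0.0825), Fabp2 (0.119), Hoxd4 (0.0593), Ldha (0.0729), Oxct1 (0.064), Rps6 (0.0991) and Slc2a4 (0.0941), all from limma. This happened for 3 to 7 of the 8 arrays in turn. Under quantile normalization 2 genes that had not passed were called with the opposite sign, Atp5g3 at -0.69 (adjusted p = 0.0117) and Cfd at -0.80 (adjusted p = 0.00428). The cause was not tested. Bmp8b, Gk5, Fis1, Esrrg, Pcx, Fabp4, Cidec, Slc27a1, Th, Hoxa9, Hoxc10 and Fgf21 also changed sign between scalings, and none of them was called in the report. Filters, the value table, the slide and replicate blocks were not run for the pairs.

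The limits are 4 arrays a group and 1 array position per group. Part of the samples held muscle, gut and lymphoid transcripts, and the white depot is not named. Signals near background limit the low genes, for which folds are lower bounds in the main processing only.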
